A study of Mus musculus with 12 samples.

Results

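Fc receptors read antibody that has already bound a particle or a cell. Fcgr1, Fcgr3 and Fcgr4 are the activating receptors for IgG in the mouse, and none of them signals alone: they rest on Fcer1g, the FcR gamma chain, a small adaptor with an immunoreceptor tyrosine-based activation motif (ITAM). Tyrobp, also called DAP12, is a second ITAM adaptor and serves Trem2, a receptor for lipids and lipoproteins on macrophages and microglia. When such receptors cluster, Src family kinases phosphorylate the ITAM and the kinase Syk docks on it, which starts phagocytosis and cytokine signalling. Fcgr2b is the inhibitory IgG receptor, and Sirpa binds CD47 on other cells and restrains phagocytosis. In the body most of these genes are used mainly by macrophages and other myeloid cells, and Sirpa more widely.

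The genes described here are these 9, Tyrobp, Fcer1g, Trem2, Fcgr1, Fcgr2b, Fcgr3, Fcgr4, Syk and Sirpa, chosen by name and found by their Ensembl identifiers as 9 of the 55573 rows of the deposited count table. All 9 passed the filter on low counts and were among the 19174 genes tested. The 9 genes and the pathway lists were chosen with earlier results of these data known. Shares over all genes are therefore given beside their counts as a description, not as a test.

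The libraries were poly(A) RNA-seq of mouse embryonic fibroblasts (MEFs) of strain C57BL/6, prepared from E13.5 embryos. All of the cells carried a doxycycline-inducible cassette for Oct4, Sox2, Klf4 and c-Myc (OSKM), the factors that reprogram somatic cells to pluripotency, and all were kept for 72 h in medium for induced pluripotent stem cells. The 4 groups were MEF (no doxycycline, no added vitamin B12), MEF + B12 (2 µM B12), doxy-OSKM (1 µg/ml doxycycline) and doxy-OSKM + B12 (both agents). Each group had 3 libraries, 1 from each of clones 1, 2 and 3, which came from separate embryos, so every comparison could be made within a clone. No group received doxycycline without the cassette, so the drug and the factors cannot be told apart, and clone 1 has a later year in its sample names than the other clones, so the year cannot be separated from what sets clone 1 apart.

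Library totals ran from 56971244 to 79236795 counts, and between 24880 and 25728 genes had a count. Pou5f1, the gene of Oct4, was at most 0.468 counts per 1000000 (CPM) in the 6 libraries without doxycycline. In doxy-OSKM it stood at 19.3, 18.5 and 2.86 CPM in clones 1, 2 and 3, and with B12 at 20.7, 19.0 and 2.34 CPM, so the libraries of clone 3 held far less of it than those of the other clones. Fibroblast markers took 88952 to 142117 CPM in all, while 13 macrophage markers summed to between 782 and 2006 CPM. Markers of other cells were lower in sum: 0.721 to 4.38 CPM for 8 neutrophil genes (mostly Mmp8), 1.93 to 3.61 CPM for 8 of mast cells and basophils, 8.36 to 11.4 CPM for 6 of megakaryocytes (mostly Itga2b), 1.71 to 3.56 CPM for 5 of dendritic cells (mostly Zbtb46), 0.235 to 0.762 CPM for 5 of B cells, 0.0289 to 0.308 CPM for 9 of natural killer and T cells and 41.9 to 145 CPM for 6 endothelial genes (mostly Tek). Of their defining genes, S100a9, Tpsb2, Tpsab1, Ncr1, Cd3e, Cd3g, Gzma, Prf1 and Gp9 were at 0 counts in all 12 libraries.

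Every one of the 9 genes was measurable. The lowest count of all was 127, for Fcgr4, and the highest was 22718, for Sirpa. Levels were compared between genes per kilobase of the longest principal transcript, as medians over the 12 libraries. Tyrobp came first with 72.3 CPM per kb, followed by its fellow adaptor Fcer1g with 69.5 and by Sirpa with 64.7. Tyrobp was above Fcer1g in 11 of 12 libraries, but the order of Fcer1g and Sirpa was not resolved, since Fcer1g was the higher in 6 of 12 libraries. Fcgr3, the low-affinity activating IgG receptor, had 37.1 CPM per kb and Trem2 had 32.8, and this pair also split 6 to 6. Below a clear step, with Trem2 above Fcgr1 in 12 of 12 libraries by a log2 ratio of at least 1.75, lay Fcgr1, the high-affinity receptor, at 7.88 CPM per kb, Fcgr2b at 6.93 and Syk at 6.11. The differences among these last 3 were within the spread between libraries, with Fcgr1 above Fcgr2b in 7 and Fcgr2b above Syk in 8 of 12. Fcgr4 was the lowest at 2.40 CPM per kb, below Syk in all 12 libraries. With the length of all annotated exons in place of the principal transcript, Trem2 dropped to 7.21 CPM per kb and under Fcgr1, because its annotated exons include 4946 bases against 1088 in the transcript.

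On GRCm38, 4 of the genes lie within less than a megabase of chromosome 1: Fcgr2b at chr1:170958617-170976547 and Fcgr3 at chr1:171051174-171064935 on the minus strand, Fcgr4 at chr1:171018920-171029761 on the plus strand and Fcer1g at chr1:171229572-171234365 on the minus strand. Fcgr1 lies apart at chr3:96282909-96293969 (minus), Tyrobp at chr7:30413760-30417585 (plus), Trem2 at chr17:48346401-48354147 (plus), Syk at chr13:52583173-52648792 (plus) and Sirpa at chr2:129592835-129632228 (plus). All are protein-coding genes, counted over their exons. Fcgr3 and Fcgr2b are close copies over part of their length: 9.58% of the 50-base words of Fcgr3 transcripts also occur in Fcgr2b, and 4.38% of those of Fcgr2b occur elsewhere, so some reads may have been lost or split between the pair. The other 7 genes shared no such word with any other gene.

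The sequences just before the transcription start are shown for 3 genes that moved with B12 in both states, Fcgr1, Fcgr4 and Trem2, and for the adaptor Fcer1g. They come from the RefSeq promoter table on GRCm38.p6, which matched 7 of the 9 genes, and each is written 5′ to 3′ on the strand of its gene and ends before the first annotated exon base. Capitals mark GAGGAA on either strand, the core bound by PU.1 (the myeloid transcription factor encoded by Spi1), and in Fcgr1 also TTCNNNGAA, the form of site bound by STAT factors. The 2 motifs do not overlap in these windows. Syk was also called with B12 in both states but is not shown. Its windows held no PU.1 core before the first annotated exon base.
Fcgr1 (chr3:96293970-96294169, minus strand): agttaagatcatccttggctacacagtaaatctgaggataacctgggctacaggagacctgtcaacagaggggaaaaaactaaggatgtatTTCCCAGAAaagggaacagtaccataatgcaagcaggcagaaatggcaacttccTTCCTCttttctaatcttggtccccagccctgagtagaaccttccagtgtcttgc
Fcgr4 (chr1:171018726-171018919, plus strand): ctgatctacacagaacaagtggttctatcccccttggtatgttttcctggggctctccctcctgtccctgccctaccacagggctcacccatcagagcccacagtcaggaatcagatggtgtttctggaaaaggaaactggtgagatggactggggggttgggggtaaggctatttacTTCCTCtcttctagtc
Trem2 (chr17:48346201-48346400, plus strand): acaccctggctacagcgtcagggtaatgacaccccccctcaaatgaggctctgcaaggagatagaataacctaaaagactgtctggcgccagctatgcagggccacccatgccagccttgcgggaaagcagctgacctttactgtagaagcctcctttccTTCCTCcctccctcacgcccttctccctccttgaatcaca
Fcer1g (chr1:171234366-171234549, minus strand): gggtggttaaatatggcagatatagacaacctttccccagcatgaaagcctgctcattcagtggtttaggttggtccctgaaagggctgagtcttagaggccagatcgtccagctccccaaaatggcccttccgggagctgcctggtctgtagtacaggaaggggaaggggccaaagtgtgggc

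In these windows the PU.1 core stood at base -55 of Fcgr1, -22 of Fcgr4 and -40 of Trem2 relative to the table's start base, in each case as its reverse complement. Over windows of 300 bases, 6 of the 9 promoters of the 7 genes in the table had at least 1 match, and 28.3% of all 32851 promoters did. By gene these were 5 of 7 (Fcgr1, Fcgr3, Fcgr4, Trem2 and 1 of the 2 promoters of Syk). The 2 windows of Fcgr3 overlap almost fully. Exon bases made up 187 of the 250 bases before the start in Fcgr2b and all 250 in the other promoter of Syk. TTCNNNGAA occurred in Fcgr1 alone among the 7, and in 8.3% of all promoters. TGANTCA, the AP-1 site, occurred in Trem2 alone, and in 7.81% of all promoters. The E-box CACGTG occurred in none of the 7 genes, and in 7.15% of all promoters. These are matches of letters, not measured binding.

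The first comparison asked whether B12 changed these genes in MEFs, induced or not. All 9 were higher with B12 when the effect was averaged over both states (edgeR quasi-likelihood test, adjusted p from 0.00044 to 0.0234), against a background of 3.46% of the 19174 tested genes called higher. The increases ran from 1.28-fold for Sirpa to 1.93-fold for Fcgr1, and their median was 0.50 as a log2 fold change, where that of all genes was -0.01. The 3 activating IgG receptors had the largest estimates, and the inhibitory receptor and both adaptors lay close together near 1.4-fold. Differences between genes were not tested, and Fcgr3 (log2 fold change 0.64, SE 0.11) lay close to Trem2 (0.52, SE 0.06). Within clones, 8 of the 9 genes were higher with B12 in 6 of 6 pairs of libraries, which 7.995% of all tested genes were, and Fcer1g was higher in 5 of 6. The block on clone was needed for most of these calls: without it only Trem2 and Sirpa passed, 2 of 9. Leaving out clone 2 left 0 and leaving out clone 3 left 5 of 9, and no gene of the 9 changed direction. Shares over all genes are not given for these fits, and those without a clone also hold fewer libraries.

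**Figure D1:**
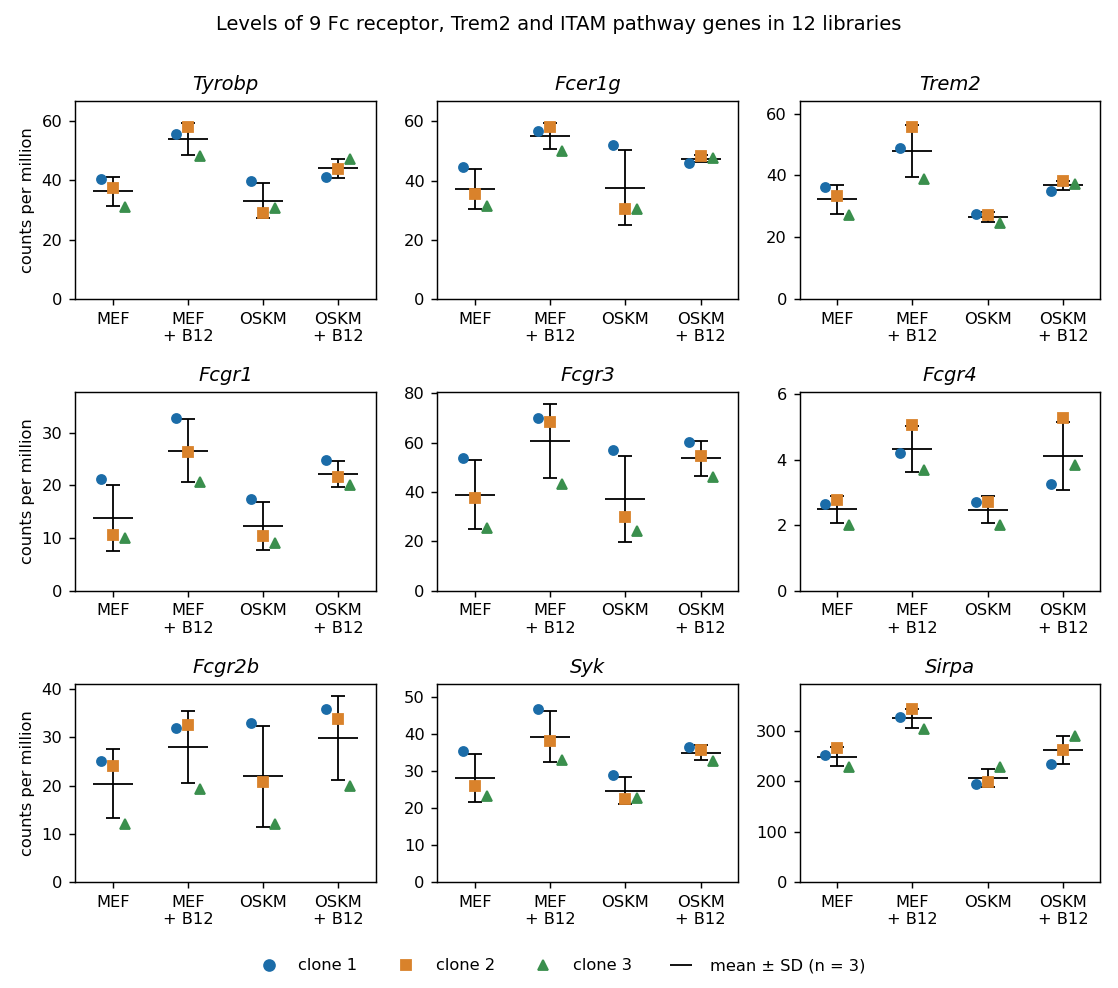
Levels of the 9 genes in CPM (vertical axis, from 0, a scale of its own in each panel) in the 4 groups, where OSKM stands for doxy-OSKM. Symbols are the 3 clones, and bars are the mean ± SD of 3 libraries. Trem2, for example, lies at 27.1 to 36.2 in MEF and 38.9 to 55.8 in MEF + B12, and Fcer1g, Fcgr2b and Fcgr3 each have 1 high doxy-OSKM library, that of clone 1.

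Fcgr1, the receptor of highest affinity for IgG, moved most. It read 21.1, 10.5 and 9.90 CPM in MEF for clones 1, 2 and 3 and 32.8, 26.4 and 20.7 CPM in MEF + B12. In doxy-OSKM it read 17.4, 10.3 and 9.11 CPM, and in doxy-OSKM + B12 24.8, 21.6 and 20.1 CPM. Clone 1 was the highest in each group, and its MEF library overlapped the B12 libraries of clone 3, while the doxy-OSKM groups did not overlap. The log2 fold change was 0.99 (SE 0.14, adjusted p = 0.00878) in MEF and 0.91 (SE 0.14, adjusted p = 0.0141) in doxy-OSKM.

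Fcgr4, the activating receptor that prefers IgG2a and IgG2b, was scarce but followed the same course. Its values were 2.65, 2.78 and 2.00 CPM in MEF against 4.22, 5.06 and 3.68 CPM in MEF + B12. They were 2.71, 2.70 and 2.00 CPM in doxy-OSKM against 3.25, 5.27 and 3.83 CPM in doxy-OSKM + B12. Neither pair of groups overlapped. The log2 fold change was 0.80 (SE 0.14, adjusted p = 0.0201) in MEF and 0.73 (SE 0.14, adjusted p = 0.0381) in doxy-OSKM, on 127 to 328 counts a library.

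Fcgr3 and Fcgr2b, the copies that share sequence, act against each other in the cell. Fcgr3 read 53.7, 37.6 and 25.6 CPM in MEF and 70.0, 68.4 and 43.4 CPM in MEF + B12. Its doxy-OSKM libraries held 57.2, 29.9 and 24.3 CPM, and those with B12 60.3, 54.5 and 46.2 CPM. Clones differed so much that the groups overlapped in both states, yet within each clone the B12 library was the higher. Averaged over states the log2 fold change of Fcgr3 was 0.64 (SE 0.11, adjusted p = 0.00662), and neither state passed alone (adjusted p = 0.0662 in MEF and 0.119 in doxy-OSKM). Fcgr2b, whose cytoplasmic tail recruits the phosphatase Inpp5d, read 25.1, 24.0 and 12.1 CPM in MEF and 31.9, 32.7 and 19.3 CPM in MEF + B12. After induction these were 33.0, 20.7 and 12.1 CPM, and 35.8, 33.9 and 19.8 CPM with B12. Its groups also overlapped in both states, because clone 3 was low throughout. The averaged log2 fold change of Fcgr2b was 0.49 (SE 0.09, adjusted p = 0.00889), with adjusted p = 0.110 in MEF and 0.116 in doxy-OSKM.

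The balance of activating to inhibitory receptor was followed as the log2 ratio within a library. The ratio of Fcgr1 to Fcgr2b was higher with B12 in 3 of 3 clones in both states, by 0.52 ± 0.32 in MEF and 0.39 ± 0.03 in doxy-OSKM (SD, n = 3). The ratio of Fcgr4 to Fcgr2b was also higher in 3 of 3 clones, by 0.32 ± 0.11 and 0.20 ± 0.06. That of Fcgr3 to Fcgr2b, genes that share sequence, was higher in 3 of 3 clones in MEF and 2 of 3 in doxy-OSKM. It was within its spread, at 0.18 ± 0.21 and 0.11 ± 0.13. With 3 clones an exact sign-flip test cannot give a p below 0.25, so none of these ratios could pass a threshold of 0.05.

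The adaptors are the shared parts of the system. Tyrobp, the partner of Trem2, read 40.5, 37.5 and 30.9 CPM in MEF and 55.7, 58.0 and 48.0 CPM in MEF + B12, with no overlap, for a log2 fold change of 0.57 (SE 0.11, adjusted p = 0.0341). Induced libraries held 39.9, 29.1 and 30.5 CPM against 41.0, 43.6 and 47.3 CPM with B12. The groups were again apart, but the log2 difference was 0.04 for clone 1 where it was 0.59 and 0.63 for the other clones, and the fold change of 0.42 did not pass (SE 0.11, adjusted p = 0.162). Fcer1g, which carries the activating Fc receptors, read 44.6, 35.3 and 31.3 CPM in MEF and 56.7, 58.2 and 50.04 CPM in MEF + B12 (log2 fold change 0.58, SE 0.14, adjusted p = 0.0884). In doxy-OSKM its level was 52.2, 30.3 and 30.4 CPM against 46.1, 48.3 and 47.6 CPM with B12, and the groups overlapped. That pair of clone 1 was the only pair in which any of the 9 genes was lower with B12, with a log2 difference of -0.18, and the fold change in doxy-OSKM was 0.37 (SE 0.14, adjusted p = 0.413). Without the doxy-OSKM library of clone 1, which was high in Fcer1g, Fcgr2b and Fcgr3, 6 of 9 genes were called in doxy-OSKM in place of 4, and 8 in MEF in place of 5. The count rose in MEF although no MEF library was left out. The share over all genes in this fit is not given, so the rise cannot be read as particular to the 9 genes.

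**Figure D2:**
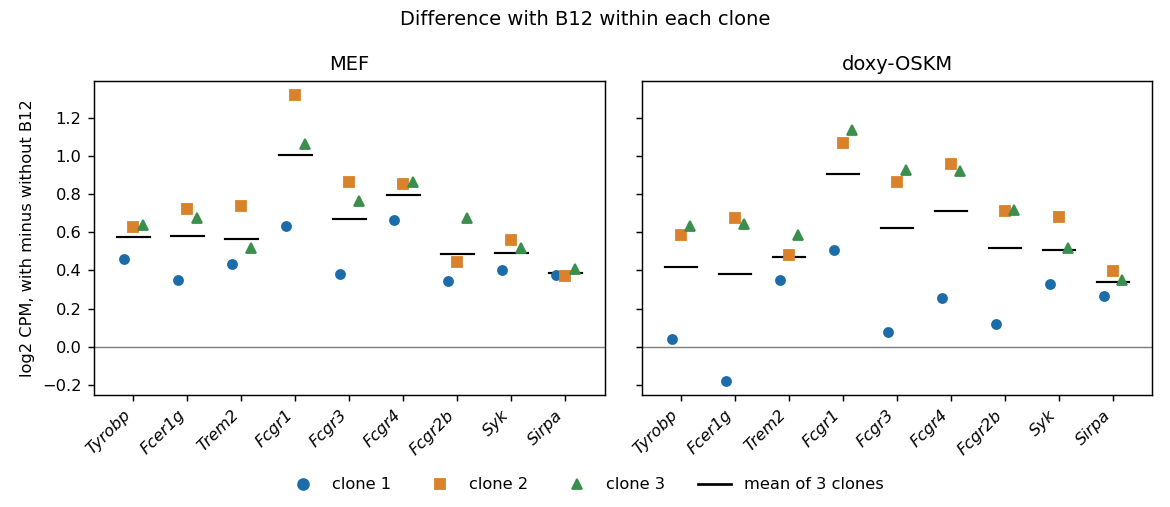
Difference in log2 CPM with minus without B12 (vertical axis) in each of 3 clones, for MEF (left) and doxy-OSKM (right); lines are the mean of 3 clones. All points lie above 0 except that of clone 1 for Fcer1g in doxy-OSKM (-0.18), and Fcgr1 has the highest mean in both states, 1.01 and 0.90.

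Trem2 read 36.2, 33.4 and 27.1 CPM in MEF and 49.0, 55.8 and 38.9 CPM in MEF + B12. After induction it held 27.5, 27.4 and 24.7 CPM and with B12 35.1, 38.2 and 37.1 CPM. The groups with and without B12 were apart in both states, with log2 fold changes of 0.57 (SE 0.09, adjusted p = 0.0147) in MEF and 0.48 (SE 0.09, adjusted p = 0.0381) in doxy-OSKM. The log2 ratio of receptor to adaptor, Trem2 to Tyrobp, differed with B12 by -0.01 ± 0.11 in MEF and 0.05 ± 0.23 in doxy-OSKM (SD, n = 3), less than its spread.

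Syk, the kinase on which both adaptors converge, read 35.2, 25.8 and 23.1 CPM in MEF and 46.6, 37.9 and 33.0 CPM in MEF + B12. In doxy-OSKM it read 29.0, 22.3 and 22.7 CPM and with B12 36.4, 35.7 and 32.5 CPM. The MEF groups overlapped through clone 1, the doxy-OSKM groups did not, and both log2 fold changes passed, at 0.49 (SE 0.08, adjusted p = 0.0156) and 0.51 (SE 0.08, adjusted p = 0.0155).

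Sirpa, the brake on phagocytosis, had the smallest averaged response. It read 253, 266 and 229 CPM in MEF and 328, 343 and 304 CPM in MEF + B12, with log2 differences of 0.38, 0.37 and 0.41. In doxy-OSKM it read 195, 199 and 228 CPM and with B12 234, 262 and 291 CPM. The groups were apart in both states, though neither state passed alone (adjusted p = 0.0679 and 0.136), and the averaged log2 fold change was 0.36 (SE 0.06, adjusted p = 0.00732).

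By state, 5 of the 9 genes were called in MEF (Tyrobp, Trem2, Fcgr1, Fcgr4 and Syk) where 1.37% of all genes were called higher, and 4 in doxy-OSKM (Trem2, Fcgr1, Fcgr4 and Syk) where 1.05% were. These counts moved when a clone was left out: in MEF they were 8, 0 and 1 without clones 1, 2 and 3, and in doxy-OSKM 7, 0 and 0. Such fits hold fewer libraries, and their shares over all genes are not given. Lost power and the part of a clone therefore cannot be told apart here. All 9 log2 fold changes stayed above 0 in these fits. The response was not shown to differ between the states. The interaction was called for 0 of 9 genes by edgeR and by DESeq2 and had an unadjusted p under 0.05 for 0 of 9, with a background of 0.00% of all genes called and 1.42% at an unadjusted p under 0.05. Its estimates ran from -0.22 (SE 0.20) for Fcer1g to 0.02 (SE 0.11) for Syk on the log2 scale, so differences of this size between states were not resolved.

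The rest of the pathway was followed in 7 lists with 90 genes, of which 73 were tested. In the averaged comparison 36 of the 73 were called higher with B12 and 1 lower (all genes: 3.46% and 0.381%). Their median was 0.37 on the log2 scale, against -0.01 over all genes.

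**Figure D3:**
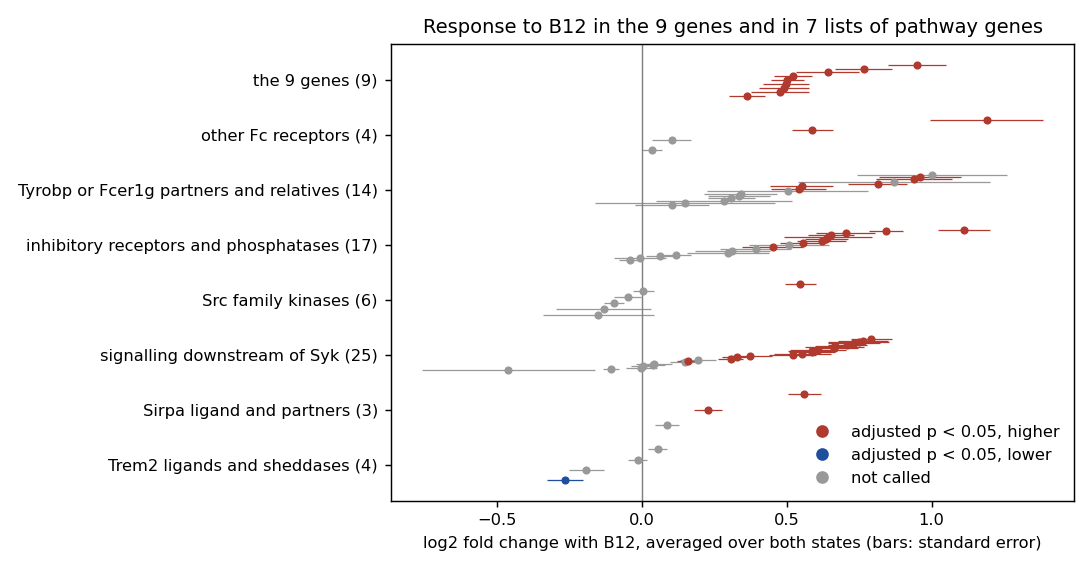
Log2 fold change with B12 averaged over both states (horizontal axis, with the standard error) for the 9 genes and for the tested genes of 7 pathway lists, with the number tested in brackets. Red marks genes called higher, blue lower and grey neither; all 9 genes are red, Apoe is the single blue point at -0.27, and the Src family kinases shown have 1 red point and 5 grey ones.

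Among the proteins that act after Syk, 17 of 25 were called higher, and the median of the 25 was 0.52 on the log2 scale. The smallest p-values were those of Pik3ap1, an adaptor for PI3-kinase (log2 fold change 0.79, SE 0.07), the exchange factor Vav1 (0.71, SE 0.07), the scaffold Lcp2, also called SLP-76 (0.67, SE 0.07), and the kinase Btk (0.76, SE 0.09), with adjusted p from 0.00021 to 0.00066. The other 8 were not called.

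Of 6 Src family kinases, which phosphorylate ITAMs, 1 was called higher. Lyn, used by many blood cells, rose by 0.55 on the log2 scale (SE 0.05, adjusted p = 0.00036). The other 5 were not called. Their log2 fold changes were -0.15 for Fgr, a kinase of myeloid cells (SE 0.19, adjusted p = 0.755), -0.13 for Lck, a kinase of T cells (SE 0.16, adjusted p = 0.748), and -0.10, -0.05 and 0.0041 for the broadly expressed Yes1, Src and Fyn (adjusted p = 0.202, 0.659 and 0.970).

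Inhibitory receptors and their phosphatases were called higher in 9 of 17 tested genes, with a median of 0.51. They included Inpp5d, the lipid phosphatase SHIP-1 that Fcgr2b recruits (0.84, SE 0.06, adjusted p = 0.00007), the adaptor Dok2 (1.11, SE 0.09, adjusted p = 0.00015), the collagen receptor Lair1 (0.64, SE 0.07, adjusted p = 0.00070) and the sialic acid receptor Siglec1 (0.65, SE 0.08, adjusted p = 0.00094). Siglecf was too low to be tested. So genes of both the activating and the inhibitory arm were called higher.

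In a list of other receptors that pair with Tyrobp or Fcer1g, and of their relatives, 5 of 14 tested genes were called higher and 0 lower, with a median of 0.52. The C-type lectins Clec4d (0.81, SE 0.10, adjusted p = 0.00103), Clec4n, which is Dectin-2 (0.96, SE 0.14, adjusted p = 0.00307), and Clec5a (0.54, SE 0.09, adjusted p = 0.00763) were among them. So was Treml2 (0.94, SE 0.13, adjusted p = 0.00204), a relative of Trem2 that is not known to use either adaptor. Clec4n stood out for its clones: in MEF it read 23.8 CPM in clone 1 and 6.51 and 5.20 CPM in clones 2 and 3. Gp6, Siglech, Trem3, Treml1 and Treml4 were too low to be tested, and Gp6 and Siglech were at 0 in all libraries.

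Most other Fc receptors were at or near 0. Fcamr, Fcer1a, Fcer2a, Fcmr, Fcrl5, Ms4a2 and Pigr were not tested, with at most 0.0742 CPM in any library, and Fcer1a, the IgE-binding chain that uses Fcer1g in mast cells, was at 0 in all 12. Fcrls (0.59, SE 0.07, adjusted p = 0.00088) and Fcrl1 (1.19, SE 0.20, adjusted p = 0.00575) were called higher, which made 2 of 4 tested. Fcgrt, the neonatal Fc receptor that recycles IgG and is used by many cell types, had a log2 fold change of 0.03 (SE 0.04, adjusted p = 0.693) on 114 to 133 CPM, and Trim21, the cytosolic antibody receptor, one of 0.10 (adjusted p = 0.524).

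On the ligand side, Cd47, which Sirpa binds, was not called and had a log2 fold change of 0.09 (SE 0.04, adjusted p = 0.357), while the Sirpa-associated adaptors Fyb (0.56, SE 0.06, adjusted p = 0.00041) and Skap2 (0.23, SE 0.05, adjusted p = 0.0229) were called higher. The surfactant proteins Sftpa1 and Sftpd were not tested. Of the Trem2 ligands and sheddases, Apoe, a lipoprotein bound by Trem2, fell by 0.27 on the log2 scale (SE 0.06, adjusted p = 0.0384). It read 325, 479 and 409 CPM in MEF and 280, 388 and 350 CPM in MEF + B12, and 276, 335 and 386 CPM in doxy-OSKM against 204, 289 and 334 CPM with B12, lower in all 6 pairs. Clu, another apolipoprotein ligand (-0.19, adjusted p = 0.131), and the proteases Adam10 (-0.02, adjusted p = 0.867) and Adam17 (0.05, adjusted p = 0.485), which can release the ectodomain of Trem2, were not called, and Apoa1 and Apob were not tested.

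Macrophage markers moved with the 9 genes. Of the 13, which hold none of the 9, 12 were called higher with B12 in the averaged comparison, and their median was 0.57 on the log2 scale, with Cx3cr1 as the exception (-0.45, adjusted p = 0.296). Their summed level was 1403, 988 and 782 CPM in MEF and 2006, 1607 and 1295 CPM in MEF + B12 for clones 1, 2 and 3. It was 1265, 856 and 789 CPM in doxy-OSKM and 1624, 1532 and 1320 CPM in doxy-OSKM + B12. In bulk RNA a change in the number of cells of a type and a change in RNA per cell cannot be told apart. Of 9 fibroblast markers 0 were called, but all 9 had negative log2 fold changes, from -0.15 to -0.03 with a median of -0.11.

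The 9 genes were therefore set against the mean change of these 13 markers in the same clone. The mean difference from the markers lay between -0.14 and 0.07 on the log2 scale for Tyrobp, Fcer1g, Trem2, Fcgr2b and Syk in both states, and Fcgr3 stood at 0.16 ± 0.16 in MEF and 0.10 ± 0.26 in doxy-OSKM (SD, n = 3). Fcgr1 exceeded them in 3 of 3 clones in both, by 0.49 ± 0.27 in MEF and 0.38 ± 0.14 in doxy-OSKM (SD, n = 3). Fcgr4 exceeded them by 0.28 ± 0.02 in MEF, and by 0.19 ± 0.17 in doxy-OSKM. Sirpa fell short of them in MEF, at -0.13 ± 0.09, and in doxy-OSKM it stood at -0.18 ± 0.17. The exact sign-flip p was 0.25, the smallest it can give over 3 clones, for Fcgr1 in both states and for Tyrobp, Fcgr4 and Sirpa in MEF, and larger for the others. Against the median of the markers in place of their mean, which Cx3cr1 enters, the values were lower. Fcgr1 still exceeded it in 3 of 3 clones, by 0.43 ± 0.24 in MEF and 0.32 ± 0.13 in doxy-OSKM, and Fcgr4 did in MEF, by 0.22 ± 0.02 (SD, n = 3). In doxy-OSKM Tyrobp (-0.16 ± 0.11), Fcer1g (-0.20 ± 0.24) and Sirpa (-0.25 ± 0.19) then fell short in 3 of 3 clones, as Syk (-0.09 ± 0.06) and Sirpa (-0.19 ± 0.12) did in MEF, while Tyrobp in MEF stood at -0.0028 ± 0.030.

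**Figure D4:**
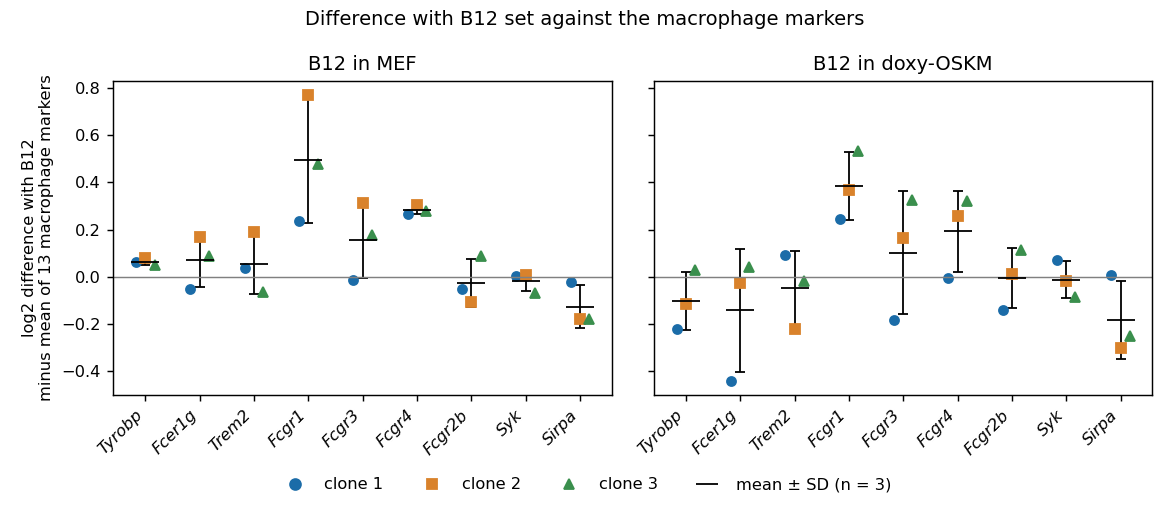
Difference in log2 CPM with B12 minus the mean difference of 13 macrophage markers in the same clone (vertical axis), for MEF (left) and doxy-OSKM (right); symbols are clones and bars the mean ± SD (n = 3). Fcgr1 lies above 0 in every clone, and clone 1 is the lowest point of Fcer1g in doxy-OSKM at -0.44.

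The second comparison asked what induction of the factors did to these genes. None of the 9 was called by edgeR without B12 (background 0.0730%) or with B12 (background 0.104%). DESeq2, for which the share over all genes is not given, called 0 and 2. An unadjusted p under 0.05 was found for 2 and 3 of the 9, where 19.0% and 14.9% of all genes had one. Trem2 and Sirpa had the lowest values. For Trem2 the log2 fold change was -0.27 (SE 0.09, adjusted p = 0.181) without B12 and -0.36 (SE 0.09, adjusted p = 0.176) with it. For Sirpa it was -0.27 (SE 0.09, adjusted p = 0.175) and -0.31 (SE 0.09, adjusted p = 0.180). Without clone 3, in fits whose shares over all genes are not given, both genes were called lower in both comparisons. The other 7 ranged from -0.28 for Tyrobp with B12 to 0.08 for Fcgr2b with B12. Macrophage markers had medians of -0.18 without B12 and -0.21 with it, with 0 of 13 called. The 6 endothelial markers, mostly Tek, summed to 41.9 to 46.6 CPM in MEF and 53.0 to 145 CPM in doxy-OSKM, and their part in these values was not tested.

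Clones did not respond alike to induction in Sirpa. Its difference with doxycycline was -0.38, -0.42 and -0.01 in clones 1, 2 and 3 without B12 and -0.49, -0.39 and -0.07 with B12, so clone 3, the clone with the least Pou5f1, stood apart in both. The test of the difference between clones passed (adjusted p = 0.0267), as it did for 2.15% of all genes. The part of the unequal induction in this result was not tested. Clone 3 also had the smallest difference in Trem2, with -0.40, -0.29 and -0.13 without B12 and -0.48, -0.55 and -0.07 with B12, but the test did not pass (adjusted p = 0.245). The count called was 3 without clone 1, 0 without clone 2, 0 without clone 3 and 2 without the doxy-OSKM library of clone 1. These fits hold fewer libraries, and their shares over all genes are not given.

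**Figure D5:**
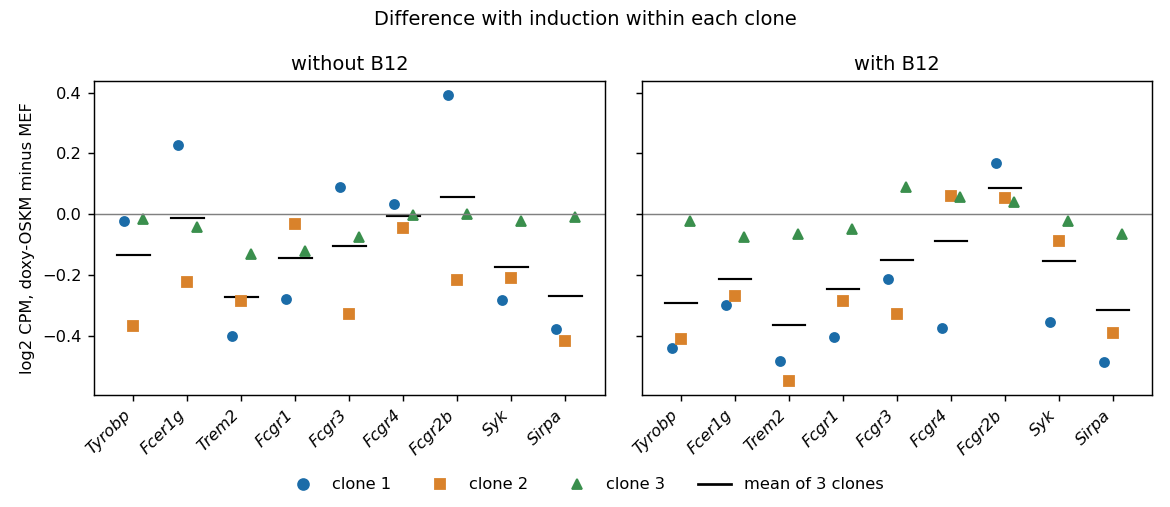
Difference in log2 CPM of doxy-OSKM minus MEF (vertical axis) in each of 3 clones, without B12 (left) and with B12 (right); lines are the mean of 3 clones. For Sirpa clones 1 and 2 lie between -0.49 and -0.38 and clone 3 between -0.07 and -0.01.

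Clones also differed in how much of some of these genes they held, as they did for many other genes. The level differed between clones for 5 of 9 genes (Fcgr1, Fcgr2b, Fcgr3, Fcgr4 and Syk), which 37.8% of all genes did. Fcgr2b had the smallest p (adjusted p = 0.00012), with 25.1 to 35.8 CPM in clone 1, 20.7 to 33.9 in clone 2 and 12.1 to 19.8 in clone 3, the last below all libraries of the others. Fcgr3 ran from 53.7 to 70.0 CPM in clone 1 and from 24.3 to 46.2 in clone 3, with no overlap. Sirpa had medians of 244, 264 and 260 CPM and did not pass (adjusted p = 0.619). The summed macrophage markers had the same order in each group, highest in clone 1 and lowest in clone 3. The count called was 3 without clone 1 and 2 without clone 3, in fits with fewer libraries whose shares over all genes are not given. The response to B12 was not shown to differ between clones, with 0 of 9 called by edgeR and by DESeq2 (background 0.00%), although Fcgr1, Fcgr3 and Fcer1g had unadjusted p-values of 0.00341, 0.00572 and 0.00364 (edgeR), below 0.05 as were those of 1.18% of all genes.

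Across the 12 libraries the 9 genes varied together, to different degrees. These values are descriptions, since the libraries share clones and treatments. Pearson's r of log2 CPM with Tyrobp was 0.94 for Fcer1g, 0.93 for Trem2, 0.90 for Syk and Fcgr1, 0.86 for Fcgr3, 0.84 for Fcgr4 and Sirpa and 0.63 for Fcgr2b. Such values were not particular to the 9 genes, since many other genes followed Tyrobp more closely. Among 11846 protein-coding genes ordered by r, Fcer1g ranked 62, Trem2 75, Syk 142 and Fcgr1 153. Fcgr3 ranked 263, Sirpa 295, Fcgr4 296 and Fcgr2b 892. Once each clone's mean was taken out, Fcgr3 had 0.96 and Fcgr2b 0.81. The genes most like Tyrobp among 11846 protein-coding genes were Cd68 (r = 0.99), a lysosomal protein of macrophages, Akr1b8, the Toll-like receptor homologue Cd180, Por and Igsf6. Those most like Syk were Tlr7, Nrros, Csf1r (r = 0.99), the receptor that macrophages need to survive, Pik3cd and Fermt3, and Fcgr1 ranked 17 in the same order. Trem2 was most like Arhgap19, Plekhm1, Sh3bp2, Kcnk13 and Slc43a2, with r from 0.97 to 0.98. Sirpa was most like Nceh1 (r = 0.99), a cholesterol ester hydrolase, the lysosomal enzyme Gusb, Pdxk, Grb2 and Tgfb1, and its r with Fcgr2b was 0.23, or 0.56 with each clone's mean taken out.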

How the data were processed

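MEFs from 3 embryos (clones 1 to 3) gave 12 poly(A), strand-specific libraries in 4 groups. The authors aligned reads to mm10/GRCm38 with STAR (2.5.2 in the submitters' processing notes) and counted fragments per Ensembl gene with featureCounts in its stranded setting; flow cells of a library were summed and raw counts were deposited. There were no molecular identifiers. Labels give 1 µg/ml doxycycline.

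From these counts, edgeR 4.0.16 (R 4.3.3) tested 19174 of 55573 genes kept by filterByExpr, with TMM scaling, the quasi-likelihood F test, group and clone as terms, all 12 libraries and Benjamini-Hochberg adjustment over all genes; the threshold was an adjusted p of 0.05. CPM are TMM-scaled counts per 1000000, and log2 values used a prior count of 2. Same-numbered libraries came from 1 embryo and deviated together (r from 0.27 to 0.69 over 18 pairs, at most 0.17 over 48 pairs of different clones). Deviations were from group means, which by construction lowers r between different clones of a group. Alternatives were DESeq2 1.42.0, other scalings and filters, no block and leaving out clones. The scripts were tested on simulated data. Symbols came from GENCODE M21 (55480 identifiers matched); 2 list genes had no identifier of their own, and 1 list gene is not reported here and enters no list count. Named genes were the 9 members and, per list, up to 4 tested genes of smallest p in the averaged B12 comparison and those not tested; Fgr and Fyn were added after their values were seen. Members and lists were chosen with earlier results of these data known. Counting error is largest for Fcgr4, with 127 to 328 counts a library. With clone as a term, differences in level between the 3 embryos are taken out. The p-values for B12 and induction therefore measure the spread left among the 12 libraries after group and clone.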

Additional observations from a re-analysis of the deposited data

Results flagged for a closer look

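The response of Sirpa to induction differed between the 3 clones, by the test of the difference itself (edgeR quasi-likelihood F test of the clone-by-induction terms, adjusted p = 0.0267). Its level was lower in doxy-OSKM than in MEF in clones 1 and 2 without B12, with log2 differences of -0.38 and -0.42, where the difference in clone 3 was -0.01. Pou5f1 in the same doxy-OSKM libraries stood at 19.3, 18.5 and 2.86 CPM, Sox2 at 15.5, 13.3 and 2.33 CPM and Myc at 53.4, 44.0 and 20.0 CPM. Klf4 was alike in the 3 clones, at 121, 123 and 119 CPM. It was no higher than in MEF, where it stood at 139, 143 and 124 CPM. Clones 2 and 3 share the year in their sample names and clone 1 has a later one. With 1 embryo per clone, the embryo and the level of Pou5f1, Sox2 and Myc cannot be told apart.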

How the results depend on the processing

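All 9 genes kept a positive log2 fold change with B12 in MEF, in doxy-OSKM and averaged, under every alternative run. The counts called moved. Shares of all genes called under these alternatives are not given here, so the moves cannot be read as particular to the 9 genes. For B12 in MEF, 5 became 9 with DESeq2, without the filter and with only the libraries compared, 8 with library totals and 0 with no replicate block, and leaving out clones gave 0 to 8. For B12 in doxy-OSKM, 4 became 8 with DESeq2 and without the filter and 0 with no replicate block, and leaving out clones gave 0 to 7. For the averaged effect, 9 became 2 with no replicate block, and 0 to 9 when clones were left out. For induction with B12, 0 became 2 (Trem2 and Sirpa) with DESeq2 and without the filter, and 0 to 2 when clones were left out; for induction without B12 it was 0 to 2. Clone levels gave 2 to 5 and the induction response by clone 0 to 3 when clones were left out. Pairing by clone changed no other count of calls by over 1.5 times. Signs turned only in uncalled values. In induction without B12, Fcgr4 was 0.054 with library totals and 0.000667 with at least 10 counts in every library, and Fcer1g was -0.010 with only the libraries compared. The interaction of Fcgr2b was -0.00792 with library totals and -0.00632 with no replicate block. Leaving out clones, or the doxy-OSKM library of clone 1, gave log2 ranges in induction without B12 of -0.226 to 0.115 for Fcer1g, -0.149 to 0.226 for Fcgr2b, -0.317 to 0.026 for Fcgr3 and -0.119 to 0.026 for Fcgr4, and with B12 of -0.148 to 0.054 for Fcgr4. For the interaction they were -0.315 to 0.017 for Fcer1g, -0.173 to 0.013 for Fcgr1, -0.125 to 0.239 for Fcgr2b, -0.188 to 0.169 for Fcgr3, -0.174 to 0.074 for Fcgr4 and -0.038 to 0.050 for Syk. The causes of these shifts were not tested. The per-kilobase levels used the principal transcript, an alternative to all exons that was chosen after seeing the data.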
